A study of Mus musculus with 40 samples.

Results

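The genes described here are 10 cytotoxic lymphocyte and interferon gamma genes: the cytokine Ifng, the granule genes Gzma, Gzmb, Prf1 and Nkg7, the receptors Klrd1, Ncr1 and Il2rb, and the transcription factors Tbx21 and Eomes. They were taken by their symbols in the deposited fold change table, which gave 12 probes of 40628 on the array and 10 genes of 29411. Ifng and Nkg7 have 2 probes each and the other 8 genes have 1. The study measured RNA of subcutaneous stromal vascular cells of mice on Cy3-labelled arrays, over time and on several diets. The series entry calls the material infiltrating macrophages of subcutaneous fat. All mice were C57BL/6J, were put on their diets after weaning at 3-4 weeks of age, and gave 1 array per diet and time point, except that LFC and HFC have 2 arrays at day 14. The protocol in the labels speaks of 5 animals per group and the series entry of 3 biological replicates, and how many mice gave the RNA of an array is not given.

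The low-fat control diet (LFC) and the high-fat diet without Kal-1 (HFC) have 11 arrays each, at days 1, 6, 10 and 14 and weeks 3, 6, 9, 12, 15 and 18. The 2 arrays of day 14 carry the labels day 14 and week 0, and weeks 3 to 18 are counted as days 35 to 140. Kal-1, a botanical formulation given with the high-fat diet, was used at 5 µg (HF5, 6 arrays, weeks 3 to 18), 20 µg (HF20, 5 arrays, weeks 3 to 15) and 75 µg (HF75, 5 arrays, weeks 3 to 15). These are 38 arrays. A further 2 arrays of week 18 were set aside because their own labels contradict each other on the dose.

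Natural killer cells and CD8 T cells kill target cells by releasing granules that hold perforin and granzymes. They also secrete interferon gamma, which acts on macrophages and many other cells through a receptor on their surface and the kinases Jak1 and Jak2. In fat tissue these lymphocytes are found among the stromal vascular cells, and interferon gamma is known there as a signal that drives macrophages towards an inflammatory state.

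A level is the log2 of the processed scanner signal after subtraction of the log2 75th percentile of all probes on the same array, so that 0 is the level of that percentile. Signals not well above background, by the scanner software's own flag, were raised to the lowest level well above background on that array. Such values are upper limits. The levels of different genes come from different probes and are not compared with each other as amounts of RNA. With this few arrays, the precision of all values below is limited. Because whole tissue fractions were measured, fewer cells of a type and less RNA per cell cannot be told apart.

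Of the 38 arrays, 3 stand apart, and all 3 are LFC. On the LFC array of week 3, 17.2% of the probes were well above background and the 75th percentile of intensity was 7.86, against 53.4% to 87.2% and 161 to 1793 on the 36 arrays other than this and the LFC array labelled day 14. Its lowest level above background was 1.09, so that 6 of the 10 members are only known to lie at or below that level there. On the LFC array labelled day 14, 9104 spots were outliers within the array. The rank correlation with each other array had a median of 0.480 for LFC at week 3, of 0.450 for LFC labelled day 14, and of 0.831 to 0.942 for the remaining 36. LFC at week 18 came last among these 36, and its 6 fibroblast genes summed to a level of -1.56, against 6.49 to 9.32 on the other 37 arrays. Comparisons of the members that hold these arrays are given with and without them below. Some correlations across arrays are also given without the LFC arrays of week 3 and label day 14, but none without LFC at week 18.

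The material held markers of macrophages, of stroma and of lymphocytes. The 7 macrophage genes, among them Emr1, which encodes F4/80, summed to a level between 2.04 and 6.04, with Cd14 the brightest on 22 arrays. The 6 fibroblast genes reached a median summed level of 8.24 and the 6 endothelial genes 5.14. The 9 T cell genes summed to levels from -1.24 (LFC week 12) to 6.07 (HF5 week 3), with Cd3d the brightest on 24 arrays, and the 5 B cell genes from -1.49 (LFC week 12) to 6.58 (LFC week 3). A list of 8 genes of lymph node tissue, which includes the follicular chemokine Cxcl13 and the lymphocyte homing ligand Glycam1 of high endothelial venules, summed to levels from -1.71 (HFC day 1) to 7.67 (LFC week 3). Ccl19 was its brightest gene on 21 arrays, and 3 to 8 of the 8 genes were well above background. The 6 natural killer cell receptor genes summed to between -3.29 (LFC week 12) and 1.33 (LFC week 18), apart from LFC at week 3, where 0 of the 6 were well above background and the sum is an upper limit.

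All 10 members were well above background on most arrays. Nkg7, Klrd1 and Il2rb were so on all 38, Gzma, Gzmb, Prf1 and Tbx21 on 37, Ifng on 36, Ncr1 on 32 and Eomes on 26. Ncr1 has no value on the HFC array of day 1, and Tbx21 and Eomes have none on the LFC array labelled day 14, because their spots there were outliers. The 2 probes of Ifng followed each other over the 38 arrays (Spearman rho 0.972). Those of Nkg7 did so less closely (rho 0.805 over 37 arrays). Their widest gap was on the LFC array of day 1, with levels of 2.26 and -6.27, the second of which was the lowest level of that array. The brighter probe of each gene is used throughout.

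Ifng encodes interferon gamma itself. Its level ranged on the LFC arrays from -5.66 (week 12) to 1.09 with a median of -0.96, and the highest of these is the upper limit on the array of week 3. On the HFC arrays it ranged from -6.47 (day 1, not well above background) to 1.44 (week 3) with a median of 0.18, and on the HF5 arrays from -2.55 (week 9) to 0.17 (week 6) with a median of -0.76. On HF20 the levels at weeks 3, 6, 9, 12 and 15 were -0.04, -0.78, -1.11, -4.81 and -3.00. On HF75 they were 0.73, -0.14, 0.07, -0.64 and -0.72. HF75 was the diet with the narrowest spread of Ifng (SD 0.59, n = 5) and its levels lay inside the range of each of LFC and HFC, so the diets overlap.

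Gzma and Gzmb encode granzymes, serine proteases that enter the target cell and start its death. Gzma ranged from -5.22 (week 12) to 1.09 on LFC (median -0.52), from -4.90 (day 1) to 1.95 (week 3) on HFC (median -0.24) and from -2.60 (week 18) to -0.21 (week 3) on HF5 (median -1.62). At weeks 3, 6, 9, 12 and 15 it was 0.15, -1.66, -1.22, -2.81 and -2.69 on HF20, and 1.37, -2.77, -0.12, -0.18 and -3.57 on HF75. Gzma was thus highest at week 3 within HFC, HF5, HF20 and HF75. Gzmb ranged from -5.24 (week 12) to 1.47 (day 1) on LFC (median -1.47), from -4.87 (day 1) to 1.64 (week 6) on HFC (median -0.38) and from -3.09 (week 9) to 0.08 (week 3) on HF5 (median -1.83). Its HF20 levels were -0.11, -2.56, -2.05, -4.79 and -3.03 at weeks 3, 6, 9, 12 and 15, and those on HF75 were -0.30, -3.25, 0.00, -1.40 and -3.64.

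Prf1 encodes perforin, which forms pores in the target cell's membrane. Its levels ranged from -5.42 (week 12) to 1.09 on LFC (median -1.68), where the highest is again the upper limit of week 3. They ranged from -4.52 (day 1) to 0.33 (week 3) on HFC (median -1.35) and from -3.65 (week 9) to 0.55 (week 3) on HF5 (median -3.08). On HF20 Prf1 was at -0.54, -4.15, -2.71, -4.74 and -3.79 at weeks 3, 6, 9, 12 and 15. On HF75 it was at -0.05, -5.19, -0.04, -2.15 and -4.61. Nkg7 encodes a membrane protein of cytotoxic granules. It ranged from -2.50 (week 12) to 3.50 (week 18) on LFC (median 0.99), from -3.52 (day 1) to 3.11 (week 6) on HFC (median 1.68) and from -0.01 (week 15) to 3.23 (week 3) on HF5 (median 0.66). At weeks 3, 6, 9, 12 and 15 Nkg7 was at 2.07, -0.62, 0.30, -1.45 and -0.60 on HF20, and at 3.01, -1.02, 3.52, 2.17 and -1.84 on HF75. The highest of its 38 levels was that of HF75 at week 9.

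Klrd1 encodes CD94, which pairs with NKG2 chains to a receptor of natural killer cells and some CD8 T cells. It ranged from -4.07 (week 12) to 3.21 (week 3) on LFC (median -0.58), from -5.06 (day 1) to 1.68 (week 3) on HFC (median 0.15) and from -1.69 (week 9) to 3.47 (week 3) on HF5 (median -1.26). Its levels at weeks 3, 6, 9, 12 and 15 were 1.25, -1.76, -1.44, -2.97 and -1.57 on HF20, and 1.44, -1.32, 1.86, 0.87 and -2.08 on HF75. Klrd1 was highest at week 3 within each of LFC, HFC, HF5 and HF20, and at week 9 within HF75. Il2rb encodes the receptor chain through which IL-2 and IL-15 sustain these cells. It ranged from -3.36 (week 12) to 2.31 (day 1) on LFC (median 0.69), from -4.39 (day 1) to 2.61 (week 3) on HFC (median 0.97) and from -0.71 (week 9) to 4.55 (week 3) on HF5 (median 0.31). On HF20 Il2rb was at 2.12, -0.67, -0.91, -2.33 and -0.96 at weeks 3, 6, 9, 12 and 15, and on HF75 at 2.59, -0.40, 2.33, 1.78 and -1.23.

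Ncr1 encodes NKp46, an activating receptor that is nearly restricted to natural killer cells and some other innate lymphocytes. Its median was -4.06 over 37 arrays. It reached 1.25 on the LFC array labelled day 14, the array with 9104 outlier spots, and had an upper limit of 1.09 on the LFC array of week 3. Without these 2 arrays its LFC levels lay between -7.12 (week 12, not well above background) and -3.04 (day 1), with a median of -4.35. On HFC they lay between -5.21 (week 12) and -1.62 (week 3), and the 16 arrays with Kal-1 all fell between -5.68 (HF5 week 15) and -2.48 (HF75 week 3).

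Tbx21 encodes T-bet and Eomes encodes eomesodermin, the T-box factors that direct the cytotoxic programme. Tbx21 ranged from -3.11 (week 6) to 2.78 (week 3) on LFC, and from -2.16 (HF20 week 12) to 1.04 (HF5 week 3) on the arrays with high-fat diet. Eomes was not well above background on 12 of the 38 arrays, 11 of them with an upper limit and 1 without a value. Its highest level that was more than an upper limit was -0.79 (HF5 week 3), followed by -0.99 (HF75 week 9). Over all members and the 5 diets, neighbours in the order of the diets' medians differed by less than the larger SD of the pair in 40 of 40 cases, and by less than the smaller SD in all but 3. These 3 are HF75 over HF5 for Ifng, LFC over HF5 for Gzma and HF5 over HF20 for Nkg7. HF20 had the lowest median in 8 of the 10 genes and HF5 in the other 2, Ncr1 and Tbx21. These medians cover different days in LFC and HFC than in the diets with Kal-1.

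**Figure D1:**
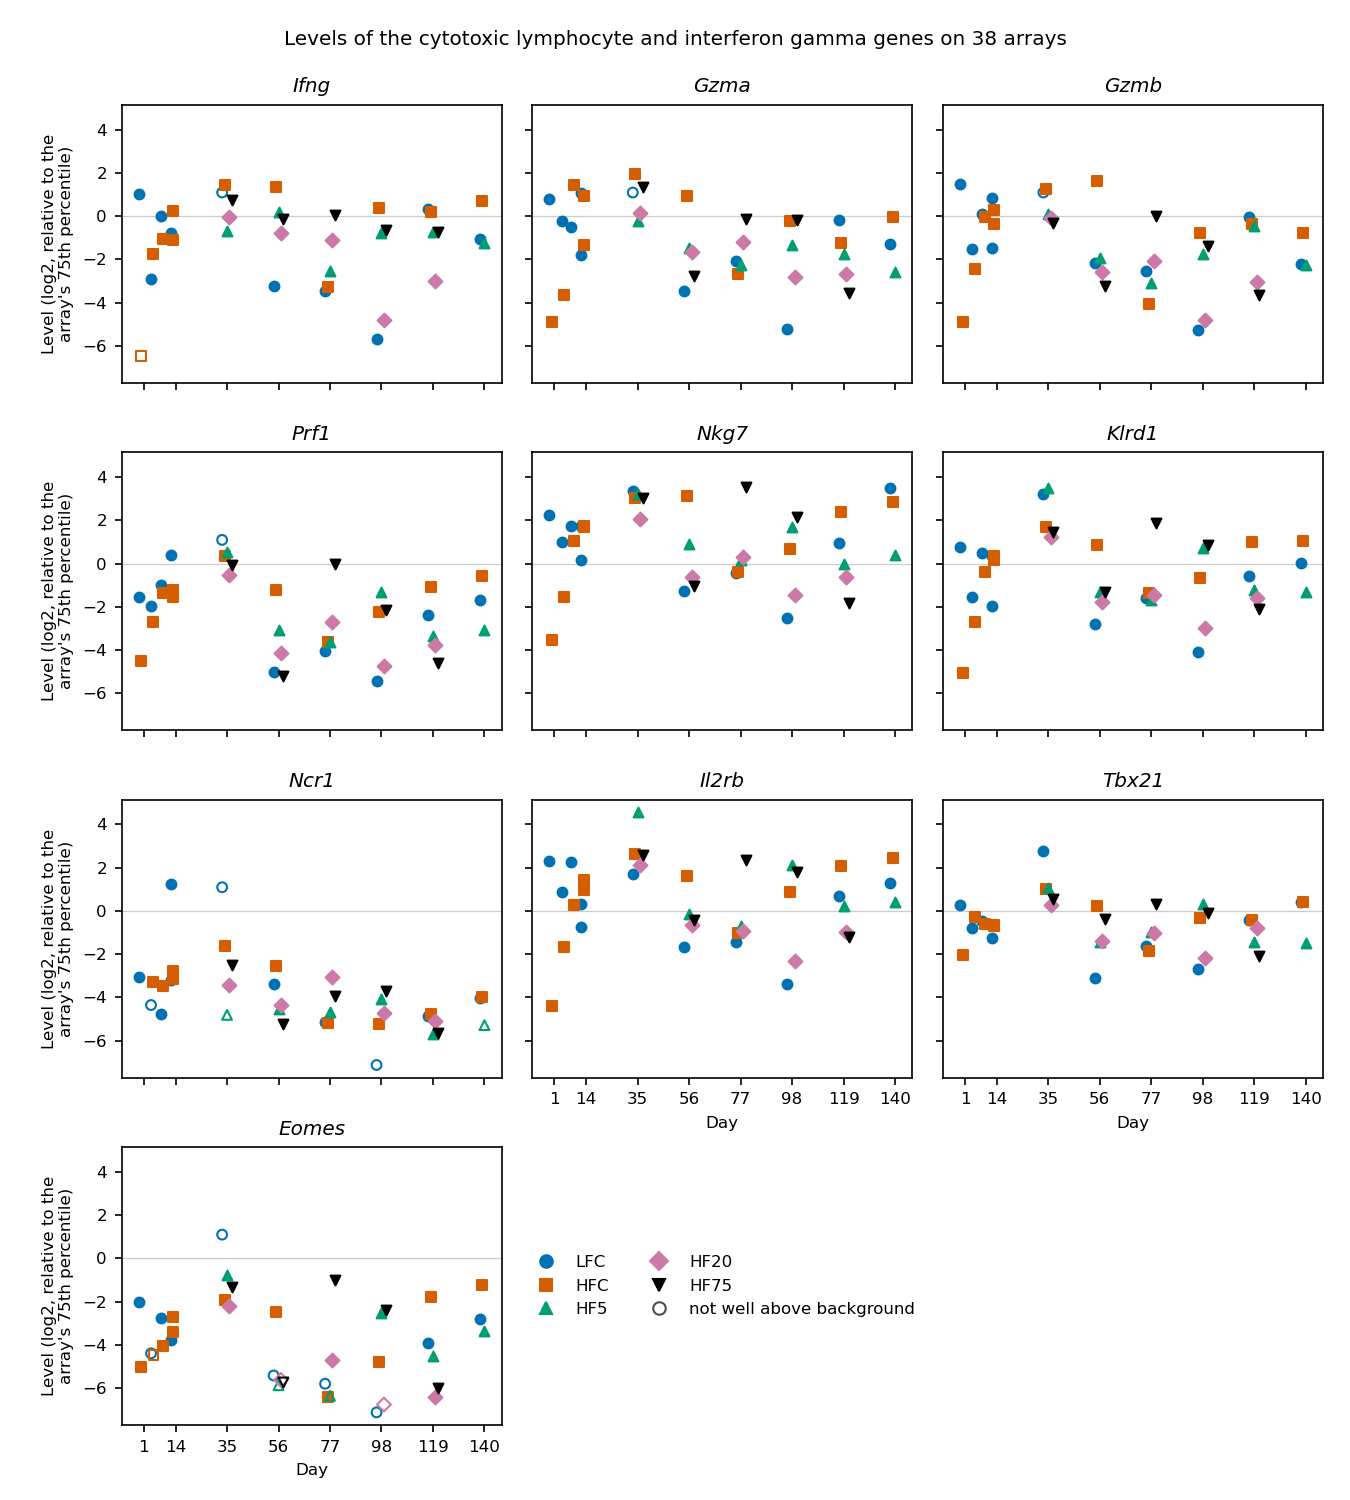
Level of each of the 10 genes (log2 above the 75th percentile) against the day, 1 point per array, with colour and shape for the diet, points shifted by up to 2 days so that diets do not hide each other, and open points for levels not well above background. The arrays of week 3 lie high in most panels, and LFC at week 12 and HFC at day 1 lie low (week 3 is day 35).

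The members were high and low together from array to array. Over the 45 pairs of members, Spearman's rho across the arrays lay between 0.361 and 0.941, with a median of 0.790, and over the 36 pairs without Ncr1 between 0.644 and 0.941. The closest pairs were Klrd1 with Il2rb (rho 0.941) and Klrd1 with Nkg7 (rho 0.935). Ncr1 was the member least like the others, with a median rho of 0.498 over its 9 pairs. Without the LFC arrays of week 3 and label day 14, the median over the 45 pairs was 0.787. The arrays share diets and days, and all levels of an array share its scaling, so that these values are descriptions. The scans held at most 5 arrays each, too few for a value within a scan.

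The median over the members put the arrays in an order that ran from -5.23 (LFC week 12), -4.87 (HFC day 1) and -3.84 (HF20 week 12) up to 0.90 (HFC week 6) and 1.35 (HFC week 3). For LFC at week 3 the median of 1.09 is an upper limit, since 4 of its 10 members were well above background. The HFC, HF5, HF20 and HF75 arrays of week 3 were among the 9 highest of the 38. At week 9, the HF75 array stood at 0.03, while the other 4 arrays of that day, whose titles carry the letters WS, lay between -2.98 and -1.33. The HF75 array of week 9 was also scanned on another day than these 4.

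Markers of other lymphocytes followed this order. Spearman's rho between the members' median and the mean level of a list over the 38 arrays was 0.871 for the T cell list, 0.869 for the natural killer cell receptor list, 0.828 for the B cell list and 0.722 for the lymph node tissue list. Without the 2 LFC arrays of week 3 and label day 14, these were 0.874, 0.885, 0.820 and 0.712. The macrophage list had a rho of -0.0708, the mast cell list 0.0745, the endothelial list 0.0159, the skeletal muscle list 0.0852, the erythroid list 0.0592, the fibroblast list 0.288, the epithelial list 0.275 and the adipocyte list -0.395. Lymph nodes lie within subcutaneous fat, and lymphocytes of the fat itself and of such nodes cannot be told apart here. The part of the lymph node in the members' values was not tested beyond the fits that carry the lymph node list as a covariate, which are given below.

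Genes with a like pattern across the 38 arrays were looked up for 3 of the members. For Nkg7 the 5 nearest of 16244 genes were Ctsw (rho 0.944), which encodes a cathepsin of cytotoxic cells, Hcst (0.938), the adaptor DAP10, Sla (0.937), Spn (0.937), the leukocyte sialoprotein CD43, and Klrd1 itself (0.935). For Gzma they were LOC641199 (0.918), Gzmb (0.889), the chemokine gene Ccl5 (0.872), Klrc2 (0.866), which encodes an NKG2 chain, and an entry without a symbol (0.835). For Ifng they were Bcl2a1c (0.816), Prdm2 (0.804), Ccl5 (0.801), Bcl2a1a (0.784) and Klrc2 (0.784). Without the LFC arrays of week 3 and label day 14, and among 19034 genes, Ctsw stayed nearest to Nkg7 (0.961) and LOC641199 to Gzma (0.923), while Fasl, the gene of the Fas ligand, came first for Ifng (0.838).

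**Figure D2:**
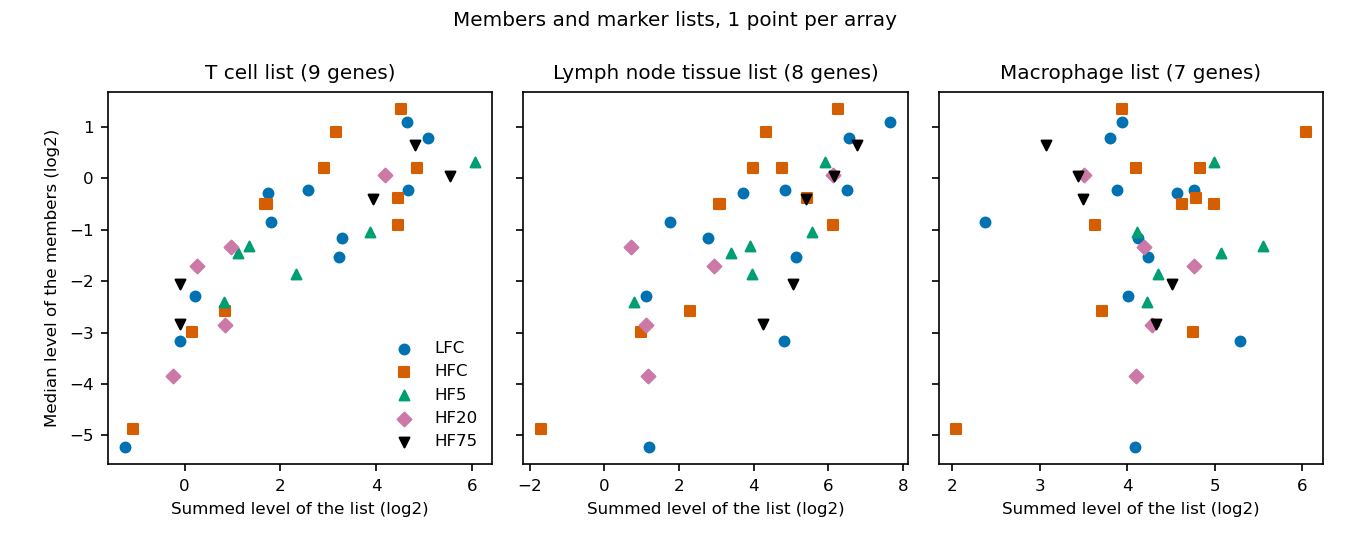
Median level of the 10 genes on each of 38 arrays against the summed level (log2) of the T cell, lymph node tissue and macrophage lists, 1 point per array with colour and shape for the diet. The points run from lower left to upper right for the T cell list (rho 0.871 with the list's mean level) and show no such order for the macrophage list (rho -0.0708).

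The first comparison asks whether levels differed between the time points that all 5 diets share, weeks 3, 6, 9, 12 and 15, with 25 arrays and the diet as a block. Prf1 and Klrd1 were the 2 members called by limma at an adjusted p under 0.05, where 10.2% of the 31567 probes tested were called, and all 10 had an unadjusted p under 0.05, as had 30.6% of all probes. Prf1 stood at 0.28 ± 0.62 (SD, n = 5) at week 3, or 0.07 ± 0.48 without the upper limit of LFC (n = 4), and at -3.73 ± 1.63, -2.81 ± 1.63, -3.17 ± 1.80 and -3.04 ± 1.37 at weeks 6, 9, 12 and 15. Its days spanned 4.01 (adjusted p = 0.0283, limma). Klrd1 stood at 2.21 ± 1.05 at week 3 and at -1.26 ± 1.34, -0.85 ± 1.52, -1.23 ± 2.21 and -0.89 ± 1.20 at the later days, a span of 3.47 (adjusted p = 0.0408, limma). For both genes, the later 4 days differed from each other by less than the SD of any of them, and every array of these days except HF75 at week 9 lay below the lowest of the HFC, HF5, HF20 and HF75 arrays of week 3. The call of Klrd1 was lost with no filter on dim probes (adjusted p = 0.0582, limma) and without the WS arrays of week 9 (adjusted p = 0.0659, limma), with the span still 3.47 in both.

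The other 8 members were also highest on average at week 3, with or without LFC, and the span of their days went from 2.36 (Tbx21) to 4.00 (Eomes). That of Eomes rests in part on upper limits, since LFC at week 3 and 4 of the 5 arrays of week 6 were not well above background. The LFC level of week 3 was only an upper limit for Ifng, Gzma, Gzmb and Ncr1 as well, and for Ncr1 so was that of HF5. The mean of Ncr1 at week 3 was -2.25 with LFC and -3.08 without. The median span over the 10 was 3.01, against 1.46 over all probes tested. Of the lymphocyte lists, 5 of 5 B cell genes, 5 of 8 lymph node genes, 2 of 9 T cell genes and 1 of 6 natural killer cell receptor genes were called. Of the macrophage list 3 of 7 genes were called, with a median span of 1.56, and of the endothelial list 0 of 6. The B cell gene Ms4a1 spanned 7.29 and the lymph node gene Glycam1 10.82. The lymph node list as a covariate, an alternative chosen after the data had been seen, left 0 of the 10 members and 1673 of the 31567 probes called by limma. At an unadjusted p under 0.05 there were 1 member and 5450 probes. The span was then 1.12 for Prf1 and 1.21 for Klrd1.

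Without week 3, 0 members were called by limma and 0 had an unadjusted p under 0.05, while 5092 of 31437 probes were called and 10608 had an unadjusted p under 0.05. Prf1 then spanned 0.92 and Klrd1 0.41. Without the LFC array of week 3, 1 member was called, Prf1 with a span of 3.55 (adjusted p = 0.0474, limma), and Klrd1 had 2.92 and an adjusted p of 0.0773. The members at an unadjusted p under 0.05 then went from 10 to 3, while the probes at that threshold went from 9663 of 31567 to 12968 of 31740. The probes called went from 3213 to 6779. Without week 6, 0 members and 0 probes were called by limma, with all 10 members and 5322 of 30771 probes at an unadjusted p under 0.05. The spans were about as large there, 3.44 for Prf1 and 3.44 for Klrd1. No scan held arrays of more than 1 of these days, so day and scan cannot be told apart.

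The second comparison asks whether the high-fat diet differed from the low-fat diet over the 11 pairs of arrays with the same time label. The members were not shifted to either side beyond the spread of the pairs. Of the 10 members 0 were called by limma, where 0% of 29215 probes were called, and 0 members but 700 probes had an unadjusted p under 0.05. The fitted differences went from -0.15 ± 0.54 (SE) for Ncr1 to 0.56 ± 0.89 for Ifng, with 9 of 10 above 0 and a median of 0.24, against -0.17 over all probes tested. The fits of Ncr1, Tbx21 and Eomes rest on 10 pairs, because each lacks a value on 1 array.

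The pairs themselves went far apart in both directions. At day 1, HFC was lower than LFC for 9 of 9 members with a value on both arrays, by a median of -5.78. Ifng was at least 179-fold lower there, and Il2rb differed by -6.70. The T cell and lymph node lists were as low at that pair, with 0 of 9 and 0 of 8 genes higher and summed levels that differed by -6.15 and -8.27, and the arrays were scanned on different days. At week 6 HFC was higher for 10 of 10 members, by a median of 3.73, and at week 12 for 10 of 10, by a median of 3.31. The largest of these was Ifng at week 12, with levels of 0.37 on HFC and -5.66 on LFC. At week 6 the summed level of the T cell list was 3.26 higher and that of the lymph node list differed by -0.49, with 4 of its 8 genes higher. At week 12 the lists were 2.92 and 1.88 higher. The summed levels of lists of other cells also differed at these pairs, by -6.24 for the epithelial list at day 1, -5.86 for the skeletal muscle list and 2.54 for the mast cell list at week 6, and 8.91 for the skeletal muscle list and 3.96 for the epithelial list at week 12. At the other 8 pairs the median over the members lay between -0.85 (day 6) and 1.11 (week 18).

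The sign of the median over the members rests on single pairs. It was 0.69 without day 1, -0.13 without week 6 and -0.12 without week 12. Without the pairs of the LFC arrays of week 3 and label day 14 it was 0.33 beside 0.06 over all probes, with 7 of 10 members higher, and without the pair of week 18 it was 0.16. In the 4 pairs that share a slide, those of day 6 and weeks 0, 3 and 9, it was -0.54 beside -0.62 over all probes, with 1 of 10 members higher. The pair of week 3 among these holds the LFC array with 4 of 10 members well above background, so upper limits enter this value. With the scan day as a block, which leaves the pair of day 1 out of the difference, it was 0.69, and with the lymph node list as a covariate 0.42. Normexp background correction gave 0.46 and quantile normalization 0.24, against -0.05 and -0.09 over all probes. Array weights gave 0.55 beside 0.01 over all probes.

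The third comparison asks whether the difference between HFC and LFC itself differed between weeks 3 to 18 (6 pairs) and days 1 to 14 (5 pairs). All 10 members had a more positive difference in the later pairs, by a median of 2.70, against -0.61 over all probes tested. Yet 0 of the 10 were called by limma, where 0% of 29215 probes were called. At an unadjusted p under 0.05 there were 996 probes and 3 members, Prf1, Il2rb and Nkg7. Prf1 differed from LFC by -1.18 ± 1.27 (SD, n = 5) in the early pairs and by 1.51 ± 1.71 (SD, n = 6) in the late ones, and its fitted change was 2.69 ± 0.90 (SE; adjusted p = 0.828, limma). Its late differences were above 0 in 5 of 6 pairs and its early ones in 1 of 5, although the pair of week 3 has no order for Prf1 because LFC gives only an upper limit there. Il2rb differed by -1.68 ± 3.41 early and by 1.88 ± 1.51 late, above 0 in 2 of 5 and 6 of 6 pairs, with a fitted change of 3.57 ± 1.35 (adjusted p = 0.828, limma). Nkg7 went from -1.50 ± 2.82 to 1.33 ± 2.06, a fitted change of 2.82 ± 1.30 (adjusted p = 0.828, limma). Ncr1 had the smallest change, 0.42 ± 1.14.

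T cell, B cell and lymph node genes lay in the same direction in this comparison. The fitted change was above 0 for 8 of 9 T cell genes (median 3.66), for 5 of 5 B cell genes (3.47) and for 7 of 8 lymph node genes (3.79), of which Glycam1 had 8.69 ± 2.16. None of these genes was called. For the natural killer cell receptors the median was 0.96 and for the macrophage list 0.69. The fibroblast list had a median of 1.83, with 6 of 6 genes above 0, and the mast cell list 1.08. The adipocyte list had -0.03 and the skeletal muscle list -0.10. At the pair of week 18, whose LFC array stands apart, the median difference was 9.30 for the fibroblast and 8.06 for the adipocyte list. At the other later pairs it lay between -0.26 and 0.98 for fibroblast and between -2.91 and 0.23 for adipocyte genes. The fitted changes of these lists are not given without week 18. With the lymph node list as a covariate, the median over the members was 0.71 beside -0.91 over all probes, with 7 of 10 above 0. Without day 1 it was 1.61, with 10 of 10 above 0, and so it was with the scan day as a block, which leaves out the same pair. Without the pairs of the LFC arrays of week 3 and label day 14 the median was 3.59 beside -0.14, with 9 of 10 above 0, and without the pair of week 18 2.74. Array weights gave 1.77 beside -0.11, also with 9 of 10 above 0. Normexp background correction, which moved the median of all probes to 0.69, gave 2.34 for the members, and quantile normalization gave 2.95 beside -0.41.

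The remaining comparisons ask whether Kal-1 altered the levels found on the high-fat diet. They use the 25 arrays of weeks 3 to 15 with the day as a block, and all 3 doses share the same 5 HFC arrays, so they are not independent of each other. Beside HFC, HF5 had lower fitted levels for 10 of 10 members, from -1.16 ± 0.87 (SE) for Gzma to -0.01 ± 0.83 for Il2rb, with a median of -0.58 against 0.05 over all probes. None passed: 0 of 10 were called by limma, where 0% of 28956 probes were called, and 0 members and 204 probes had an unadjusted p under 0.05. The median over the members of HF5 minus HFC was 0.12, -2.08, 0.46, 0.97, -1.42 and -2.09 at weeks 3, 6, 9, 12, 15 and 18. HFC was higher for 10 of 10 members at weeks 6, 15 and 18. The summed level of the T cell list differed at the same days by 1.55, -2.06, 0.66, 2.20, -3.11 and -2.54. Of the other cell lists, 0 of 6 fibroblast genes lay higher (median -0.58, 3 at an unadjusted p under 0.05, 0 called by limma) and 0 of 6 endothelial genes (median -0.67), while 5 of 5 epithelial genes did (median 1.76). The median differences of the pairs at weeks 3, 6 and 9 were -2.21, -0.23 and 0.07 for the fibroblast list. For the endothelial list they were -4.27, -0.03 and 0.14. Without week 6 the fitted median of the members was -0.22 with 4 of 10 higher on HF5, and without week 15 -0.14 with 3 of 10 higher. Array weights gave -0.23, and the fit on the 2 diets alone, whose 12 arrays include the pair of week 18, gave -0.90. In the latter, 2 members and 1362 of 29200 probes had an unadjusted p under 0.05, and 0 members were called by limma. In the 3 pairs that share a slide, weeks 12, 15 and 18, the fitted median was -0.97. With the lymph node list as a covariate it was -0.43, and with normexp background correction -0.95 beside -0.32 over all probes.

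HF20 lay furthest below HFC. The fitted difference was below 0 for 10 of 10 members, with a median of -1.64 against 0.08 over all probes, from -2.05 ± 0.97 (SE) for Gzmb to -0.25 ± 0.85 for Ncr1. Ifng had -1.96 ± 0.94, Nkg7 -1.81 ± 0.93 and Il2rb -1.77 ± 0.84. Again 0 of 10 were called by limma, where 0% of 30831 probes were called, with 859 probes and 2 members, Gzmb and Il2rb, at an unadjusted p under 0.05 (adjusted p = 0.984 for both, limma). Gzmb was lower on HF20 than on HFC in 4 of 5 pairs and Il2rb also in 4 of 5. The exception for both was week 9, where HF20 was higher for 9 of 10 members and the arrays carry WS in their titles. At weeks 3, 6, 12 and 15 the median over the members was -0.90, -2.61, -2.42 and -2.70. The summed level of the T cell list differed by -0.34, -2.91, -1.92 and -3.60 at these days, and by 0.81 at week 9. That of the lymph node list differed by -0.14, -1.40, -1.89 and -4.32, and by -0.27 at week 9.

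In the fit of HF20, the T cell list had a median of -1.68, the lymph node list -1.60, the B cell list -1.20 and the macrophage list -0.53, while 6 of 6 adipocyte genes were above 0 with a median of 2.09. With the lymph node list as a covariate, the median over the members was -0.67 beside 0.19 over all probes, with 9 of 10 below 0. It was -2.25 without week 9 or without its arrays that carry WS, -1.31 without week 6 and -1.54 beside 0.27 with the scan day as a block. Normexp background correction gave -1.60 beside -0.39 over all probes, and quantile normalization -1.68 beside 0.01. The number of members at an unadjusted p under 0.05 was 0 without week 6, 12 or 15, where 549 of 32424, 182 of 32318 and 133 of 32391 probes were at that threshold. It was 7 without week 9, where 1235 of 31704 probes were, and 8 with normexp, where 4233 of the 30831 probes were. In these fits 0 members were called by limma.

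HF75 differed little from HFC on average, because its pairs pointed both ways. The fitted differences went from -1.26 ± 0.97 (SE) for Gzmb to 0.20 ± 1.13 for Eomes, with 1 of 10 above 0 and a median of -0.27 against 0.03 over all probes. Of the 10 members 0 were called by limma, where 0% of 28910 probes were called, and 0 members and 1560 probes had an unadjusted p under 0.05. The median over the members was -0.42, -2.96, 3.36, 0.58 and -3.18 at weeks 3, 6, 9, 12 and 15. At week 9 HF75 was higher for 10 of 10 members, with levels of 3.52 against -0.39 for Nkg7 and of -0.04 against -3.63 for Prf1. At that pair 9 of 9 T cell genes and 8 of 8 lymph node genes were higher, and their summed levels differed by 5.38 and 5.16. The B cell list differed by 6.49, the skeletal muscle list by 4.86, the epithelial list by 4.14, the macrophage list by -1.32 and the endothelial list by -1.37. HF75 and HFC of week 9 were scanned on different days, as were those of weeks 3 and 6. In the 2 pairs of 1 scan, weeks 12 and 15, the members differed by 0.58 and -3.18. The fitted median was -1.10 without week 9, 0.22 without week 6, 0.18 without week 15, -0.63 with the lymph node list as a covariate and -0.61 beside 0.19 over all probes with the scan day as a block. Normexp background correction gave -0.52 beside -0.23, with 5 probes called. Array weights gave -0.66 with 2574 probes called, and the fit on the 2 diets alone called 269 probes, with 0 members among them in each case. Leaving out the LFC array of week 3 left the medians of HF5, HF20 and HF75 at -0.58, -1.64 and -0.27. These diets and HFC have an array at each of the 5 days, so leaving out an LFC array cannot move these medians. The differences between the doses were not tested.

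**Figure D3:**
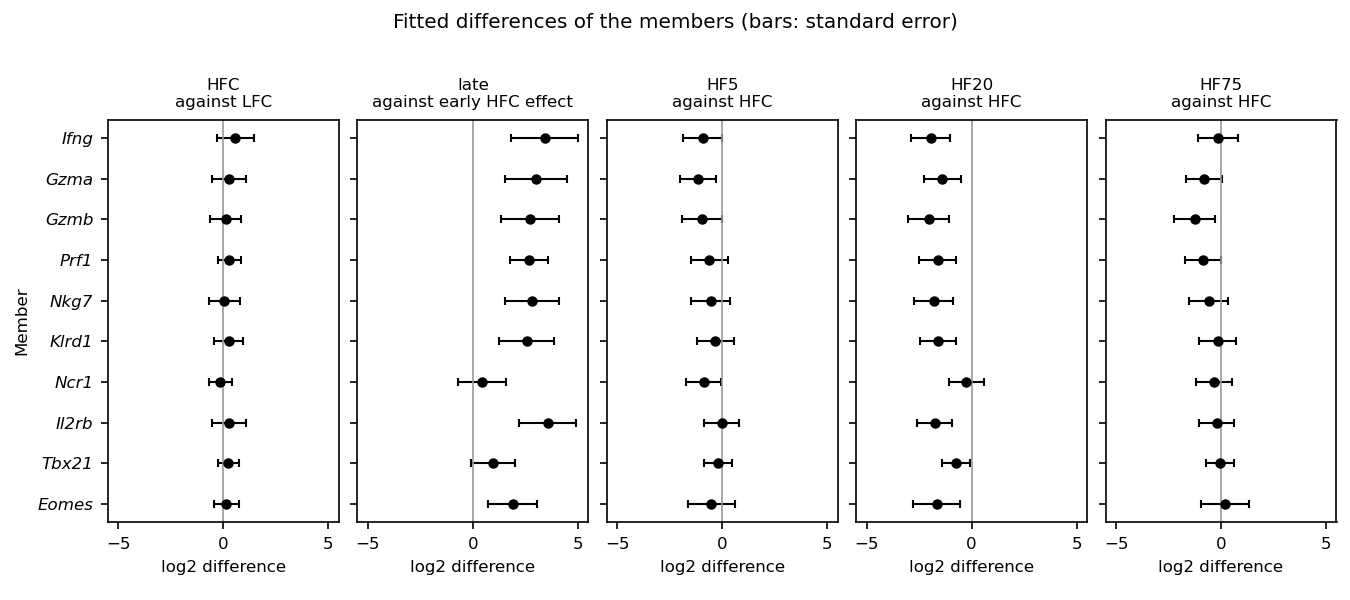
Fitted log2 difference of each of the 10 genes in the 5 comparisons of diets, with bars for the standard error. For HFC against LFC the points lie between -0.15 and 0.56, for the late against the early difference all lie above 0, and for HF20 against HFC all lie below 0; none was called.

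Of the genes around the members in the pathway, some were called between time points and none between diets. Upstream, a list of 12 genes of inducing cytokines, of receptors and of signalling (Il12a, Il12b, Il15, Il18, Il27, Il12rb1, Il12rb2, Il15ra, Il18r1, Il18rap, Il2rg and Stat4) had a rho of 0.748 with the members' median over the arrays. Of its genes, 3 of 12 were called between days, where 10.2% of all probes were, among them Il12a, which spanned 4.40 (adjusted p = 0.0205, limma), and Il12b, which spanned 3.54 (adjusted p = 0.0366, limma). Il12b was well above background on 17 of the 38 arrays and Il12rb2 on 12. Of the 9 other granule genes (rho 0.738), 2 were called between days, Gzmc with a span of 3.32 (adjusted p = 0.0339, limma) and Unc13d, whose product primes granules for release, with 3.03 (adjusted p = 0.0321, limma). Gzmc was well above background on 16 of the 38 arrays, so its span rests in part on upper limits. Srgn, the gene of the granule proteoglycan serglycin, was the brightest of that list on all 38 arrays. Of the 6 chemokine and homing receptor genes (rho 0.671), 3 were called between days, among them Ccl4 with a span of 5.73 (adjusted p = 0.0396, limma) and Cx3cr1 with 3.34 (adjusted p = 0.0184, limma). The highest level of each of Il12a, Il12b and Cx3cr1 was 1.09, the upper limit on the LFC array of week 3. Their spans thus rest in part on an upper limit, and no span without that array is given for them.

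Downstream, Jak1 and Ifngr1, a chain of the interferon gamma receptor, were well above background on all 38 arrays. Neither was called between days, and Jak1 spanned 1.40 and Ifngr1 1.54. The 12 target genes of interferon gamma, such as the chemokine genes Cxcl9 and Cxcl10, the GTPase genes Igtp and Iigp1 and the class II transactivator gene Ciita, had a rho of 0.531. Of the 11 tested, 2 were called between days, and Ciita was among them with a span of 3.44 (adjusted p = 0.0228, limma). Nos2, the inducible nitric oxide synthase gene of activated macrophages, was well above background on 6 of the 38 arrays.

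In the comparisons of diets, 0 genes of these 4 lists were called by limma. At an unadjusted p under 0.05 there was 1 target gene in HFC against LFC, Cd274 with 0.97 ± 0.39 (SE). In that comparison 9 of 11 target genes were above 0, with a median of 0.47. In HF20 against HFC, 3 of 6 chemokine and homing genes had an unadjusted p under 0.05, all below 0: Ccl4 with -3.66 ± 1.40, Ccl5 with -2.06 ± 0.88 and Xcl1 with -1.77 ± 0.83. Cxcl10, a target gene, had -2.67 ± 1.12 there. In the late against the early difference of HFC, Ctsw had 3.54 ± 1.09, Unc13d 2.94 ± 1.13 and Ciita 2.92 ± 0.96. The medians of the lists in HF20 against HFC were -1.06 for the other granule genes, -1.35 for chemokines and homing receptors, -0.50 for the inducing cytokines and -0.41 for targets.

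The deposited table places the members on chromosomes 6 (Klrd1), 7 (Nkg7 and Ncr1), 9 (Eomes), 10 (Ifng and Prf1), 11 (Tbx21), 13 (Gzma), 14 (Gzmb) and 15 (Il2rb). The array reads each gene through probes of 60 bases. Those of Klrd1, a member called between days, and of Gzma, a granzyme, are printed because all their values above rest on them, with a GC content of 45% for Klrd1 and 35% for Gzma.
Klrd1: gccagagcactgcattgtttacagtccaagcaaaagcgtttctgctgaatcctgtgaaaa
Gzma: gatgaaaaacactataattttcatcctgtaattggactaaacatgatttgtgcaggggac

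Because the members moved together, the RefSeq sequences around their start sites (GRCm38.p6, 250 bases before to 50 after the start) were searched on both strands for the T-box site AGGTGTGA, of the kind that T-bet and eomesodermin bind. Of the 10 members 8 have an entry, with 9 start sites, and Klrd1 and Il2rb have none. AGGTGTGA was found at Nkg7, at positions -14 to -7 from the start, and in 1.28% of all 32851 promoters. Of the 2 motifs searched in these windows, 1 is described here and the other is left out. Such a match describes the letters of these windows only. The 250 bases before the start are shown for Nkg7 (chr7:43436888-43437137, + strand), the member with the T-box site, with only this match in capitals.
Nkg7: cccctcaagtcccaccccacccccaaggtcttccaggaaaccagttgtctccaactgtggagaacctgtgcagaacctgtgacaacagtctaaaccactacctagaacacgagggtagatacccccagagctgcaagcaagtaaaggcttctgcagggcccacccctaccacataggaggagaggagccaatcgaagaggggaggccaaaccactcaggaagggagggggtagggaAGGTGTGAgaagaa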

How the data were processed

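Signal intensities of 40 arrays were used, which the authors had extracted from the scans with Agilent Feature Extraction. The deposited intensities had been corrected for background and for trends across the slide, with no scaling across arrays. Per the file headers the program's version was 10.5.1.1, while the labels name version 9.1. From these intensities, log2 levels relative to each array's 75th percentile were computed in Python 3.11.15 (NumPy 2.4.6, pandas 2.3.3, SciPy 1.17.1), with outlier spots dropped and duplicate spots averaged. Comparisons were fitted with limma 3.58.1 in R 4.3.3, with pairs of the same time label or the day as a block, over the probes that passed the background flag in 50% or more of a group. A gene was called at a Benjamini-Hochberg adjusted p under 0.05 over all probes tested. The fits of HFC against LFC and of HF5 against HFC were tested on simulated data with less spread than the real data. Every member is named; for each list the rule was to name up to 4 genes, the most changed or most abundant, and for Nkg7, Gzma and Ifng the 5 genes nearest by Spearman rho. Further names were picked after their values were seen. The members and lists were chosen with earlier results of these data known. The alternatives tried were other scalings, filters, blocks, weights and sets of arrays.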

Additional observations from a re-analysis of the deposited data

How the results depend on the processing

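Signal over background limits Eomes, Ncr1 and the LFC array of week 3, and only day 14 has 2 pairs of HFC and LFC. In every comparison of diets 0 members were called under every alternative, while sizes, directions and counts of probes moved, and the cause was not tested. Probes called went from 0 to 2574 for HF75 and from 0 to 6 for HF20. Members at an unadjusted p under 0.05 lay between 0 and 8 for HF20 and between 0 and 9 for late against early. Both highest counts came with normexp, where 4233 of 30831 probes were at that threshold for HF20 and 11570 of 29215 for late against early. The blocks by scan day, the lymph node covariate and the fits without weeks 3 and 15 were chosen after the data had been seen, and the array weights missed their convergence tolerance in the dose and time fits. Without the time label as a block, the medians over the members were 0.23 for HFC against LFC and 2.70 for late against early. Without the diet as a block, 2 members and 3191 probes were called between time points. The medians of -0.58 for HF5, -1.64 for HF20 and -0.27 for HF75 cannot move without the day as a block, because each diet has 1 array per day in these fits. For HF20, members at an unadjusted p under 0.05 went from 2 to 0 without that block, and probes from 859 to 272. For HFC against LFC, the slide as a block gave -0.84 for Gzma, -0.70 for Gzmb, -0.25 for Prf1, -0.73 for Nkg7, -0.67 for Klrd1, -0.21 for Tbx21, -0.83 for Eomes and -0.14 for Il2rb. The pairs of that fit include the one with the LFC array of week 3. The fit without the LFC arrays of week 3 and label day 14 gave -0.010 for Gzmb, -0.082 for Nkg7, 0.65 for Ncr1 and -0.022 for Il2rb. Array weights gave -0.045 for Gzmb and 0.28 for Ncr1, and without weeks 3 and 15 Nkg7 had -0.063 and Ncr1 0.14. Ncr1 had 0.0040 with normexp and 0.13 with dim signals kept, while with outlier spots kept Tbx21 had -0.00053 and Eomes -0.050. Leaving out each time point in turn gave -0.21 to 0.86 for Gzma, -0.33 to 0.75 for Gzmb, -0.067 to 0.61 for Prf1, -0.39 to 0.63 for Nkg7, -0.10 to 0.85 for Klrd1, -0.38 to 0.28 for Ncr1, -0.11 to 0.52 for Tbx21, -0.17 to 0.49 for Eomes and -0.13 to 0.96 for Il2rb. For late against early, the lymph node covariate gave -0.13 for Klrd1, -1.10 for Tbx21 and -1.71 for Eomes. Ncr1 had -0.24 without the LFC arrays of week 3 and label day 14, -0.15 with array weights, and -0.79 to 1.00 with a time point left out. For HF5, Tbx21 had 0.13 with array weights, and Il2rb 0.086 with normexp and 0.13 with the lymph node covariate. With a time point left out, HF5 gave -0.85 to 0.16 for Klrd1, -0.50 to 0.13 for Tbx21, -1.22 to 0.19 for Eomes and -0.50 to 0.44 for Il2rb. For HF20, Ncr1 had 0.053 with array weights, 0.40 with the lymph node covariate, 0.10 with the scan day as a block, and -0.85 to 0.14 with a time point left out. For HF75, Ncr1 had 0.49 with the scan day as a block. Eomes had -0.56 with normexp, -0.020 with dim signals kept, -1.11 without the WS arrays of week 9, -0.37 with array weights, -0.46 with the lymph node covariate and -0.27 with the scan day as a block. With a time point left out, HF75 gave -1.03 to 0.19 for Ifng, -1.71 to 0.32 for Nkg7, -1.0 to 0.57 for Klrd1, -0.79 to 0.25 for Ncr1, -0.62 to 0.33 for Tbx21, -1.11 to 1.29 for Eomes and -1.09 to 0.57 for Il2rb. Between time points, 2 members were called in the main fit (3213 of 31567 probes), 8 with normexp (20041 probes), 4 with quantile normalization (6031) and 8 with array weights (15179). There was 1 without a filter (2024 of 40628 probes), 1 without the LFC array of week 3 (6779 of 31740) and 1 without the WS arrays (1101 of 31560). With the lymph node covariate 0 members were called (1673 probes), and 0 to 3 with a time point left out (0 to 5092 probes). A fit with the scan day beside the time points was also run and is not used, since every scan lies within 1 time point. In that fit 0 members and 0 of 31567 probes were called, with spans of 5.35 for Prf1 and 4.25 for Klrd1.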

Other observations

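Adipocyte genes lay higher on HF20 than on HFC in the fit of the 25 arrays for 6 of 6 genes, with a median of 2.09, and 3 of them had an unadjusted p under 0.05 while 0 were called by limma. Between time points, 5 of 6 adipocyte genes and 3 of 5 epithelial genes were called, where 10.2% of all probes were. For HF75 against HFC, 5 of 7 macrophage genes, 3 of 5 mast cell genes and 4 of 6 fibroblast genes had an unadjusted p under 0.05, as had 5.40% of all probes. The medians of these lists were -0.97, -1.27 and -0.50, with 2 of 6 fibroblast genes above 0, and 0 genes were called by limma. The LFC array of week 18 had the lowest summed levels of 4 lists: -1.56 for fibroblast, -2.92 for adipocyte, -0.96 for endothelial and -3.24 for skeletal muscle genes.

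On the 2 arrays of week 18 whose labels contradict each other on the dose, the median over the members was -0.79 and -0.67. The first has 21710 outlier spots, and 6 of the 10 members have a value there. Its levels were -0.80 for Ifng, -2.70 for Gzma, 0.55 for Nkg7, -0.78 for Klrd1, -1.50 for Eomes and 0.08 for Il2rb. The second had 0.23 for Ifng, -1.07 for Gzma, -0.62 for Gzmb, -2.91 for Prf1, 0.49 for Nkg7, -0.71 for Klrd1, -4.10 for Ncr1, -0.57 for Tbx21, -4.83 for Eomes and 0.13 for Il2rb.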
